A study of Mus musculus with 6 samples.

Results

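The germinal center kinases are a branch of the Ste20-like serine/threonine kinases. Here 10 of their genes, Mink1, Tnik, Map4k1, Map4k2, Map4k3, Map4k4, Map4k5, Stk3, Stk4 and Stk10, were followed in naive CD8 T cells with and without CD103. The 10 genes were taken by symbol from a table of 55450 genes, and all 10 had enough counts to be tested. The set was chosen by measured values of this same comparison: Mink1 had passed the test over all genes (adjusted p = 0.0297, edgeR quasi-likelihood test), and the other 9 were added for their kinship with it. The group differences given below for Mink1 are therefore a description. For each gene, values per library are given in the order of replicates 1, 2 and 3.

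Polyadenylated RNA was sequenced from lymph node CD8 T cells sorted as Ly6C- and CXCR3-, 3 libraries from WT (C57BL/6) mice and 3 from CD103KO (Itgae-/-) mice. CD103, the product of Itgae, is an integrin subunit that lets T cells hold on to E-cadherin of epithelia. Both groups passed the same sort. The labels give neither age nor sex and do not say how many animals stand behind a library, so a p-value here covers only the spread among these libraries. That spread may be technical, although the WT libraries also differ in sex by the genes given below. A lower level in such bulk RNA can mean fewer cells of a type or less RNA per cell, which cannot be told apart.

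Many germinal center kinases sit at the top of MAP kinase cascades, as their name MAP4K says: they pass signals to kinases that activate JNK. The catalytic domain lies at the start of the protein, and MINK1, TNIK and MAP4K4 end in a citron homology domain through which they are known to bind Rap2 GTPases. In T cells, MAP4K1 (also called HPK1) restrains signalling below the T cell receptor, STK4 (also called MST1) is the mammalian Hippo kinase needed for naive T cell survival and homing, and STK10 (also called LOK) phosphorylates the ERM proteins that tie the membrane to actin.

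MINK1, TNIK and MAP4K4 are close relatives, and their coding sequences are shown because reads could in principle be assigned to the wrong relative. The stretch below runs from coding base 541 to 690 in each gene, in the part that encodes the activation segment of the kinase domain. It was read from the longest coding transcript of each gene in GENCODE M21, 5′ to 3′ on the sense strand, and capitals mark bases that differ from Mink1.
Mink1: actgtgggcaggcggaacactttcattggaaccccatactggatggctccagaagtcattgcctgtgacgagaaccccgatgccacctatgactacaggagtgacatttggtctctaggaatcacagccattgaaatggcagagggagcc
Tnik: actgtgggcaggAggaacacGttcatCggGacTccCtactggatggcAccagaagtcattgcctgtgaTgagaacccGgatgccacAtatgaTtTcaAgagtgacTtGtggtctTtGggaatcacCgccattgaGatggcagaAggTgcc
Map4k4: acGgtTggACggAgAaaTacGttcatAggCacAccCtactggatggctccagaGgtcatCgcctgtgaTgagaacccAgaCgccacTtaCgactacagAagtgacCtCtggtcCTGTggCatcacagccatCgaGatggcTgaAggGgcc

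Of these 150 bases, 129 were identical between Mink1 and Tnik (86.0%) and 118 between Mink1 and Map4k4 (78.7%). Over the whole aligned coding sequence, Mink1 was 75.1% identical to Tnik and 74.1% to Map4k4. The longest unbroken match of Mink1 with either relative was 20 bases, and with Tnik it lies inside the stretch shown, from coding base 589 to 608. No run of 50 bases in the Mink1 transcript occurred on the same strand in a transcript of another gene, and the same held for 8 of the other 9 genes. The exception was Stk10, where 0.24% of such runs were shared. On this annotation the longest coding transcripts are thus told apart almost throughout by runs of 50 bases read on the same strand. On the opposite strand, shared runs made up 13.49% for Map4k5, 1.58% for Mink1, 0.98% for Map4k2 and 0.22% for Stk10. The read length is not given in the sources used here.

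STK3 and STK4, the mammalian Hippo kinases, are another close pair. The stretch below, from the first part of the kinase domain, runs from coding base 271 to 390 of Stk4 and from 262 to 381 of Stk3, with capitals where Stk3 differs. It is shown because the pair is alike in sequence and far apart in level.
Stk4: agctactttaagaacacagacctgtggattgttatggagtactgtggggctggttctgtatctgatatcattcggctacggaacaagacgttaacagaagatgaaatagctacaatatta
Stk3: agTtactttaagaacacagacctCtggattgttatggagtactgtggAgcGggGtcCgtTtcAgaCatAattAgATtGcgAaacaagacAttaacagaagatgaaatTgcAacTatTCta

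In this stretch 99 of 120 bases were identical (82.5%), and over the aligned coding sequence 77.8%, the highest of the 5 pairs aligned. Map4k3 and Map4k5 were 73.8% identical, with a longest shared run of 20 bases.

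The libraries held 68292475 to 94347034 expected counts, and 1 count stood for 0.0105 to 0.0147 CPM (CPM, counts scaled to a common library size). Itgae was at 460 to 495 CPM in WT and at 61.1 to 67.9 CPM in CD103KO, lower in every CD103KO library as labelled. The defining CD8 T cell genes were high in both groups, with Cd8a between 1438 and 1506 CPM. The 8 naive CD8 T cell markers summed to 8293 to 8440 CPM in WT and 8157 to 8382 CPM in CD103KO. Among them Ccr7 was lower in every CD103KO library (438 to 450 CPM) than in any WT library (480 to 492 CPM), and the others overlapped. Of the 8, edgeR called 0, and 1 was lower at an unadjusted p under 0.05, against 4.2% of all tested genes. Xist was at 66.9 and 79.7 CPM in WT replicates 1 and 2, which had no Ddx3y counts, whereas Xist stayed at 2 counts or fewer in WT replicate 3 and in every CD103KO library, where Ddx3y was at 47.8 to 56.2 CPM. B cell markers, 10 of 10 found, summed to 2.698 to 3.31 CPM in WT and 8.20 to 13.0 CPM in CD103KO. Erythrocyte and platelet markers summed to 32.6 to 49.3 and 57.1 to 92.1 CPM, with the platelet genes Pf4 and Gp9 at 0. The other marker sums overlapped between the groups, at 8.95 to 11.0 and 9.95 to 12.1 CPM for CD4 and regulatory T cells, 3.12 to 5.60 and 3.33 to 3.99 CPM for myeloid and dendritic cells (Cd14 and Siglech at 0), 35.7 to 45.6 and 36.9 to 44.8 CPM for NK and innate-like cells, and 137 to 153 and 128 to 168 CPM for stroma and endothelium, where Pecam1 made up nearly all of the sum. Xist is read from the inactive X chromosome of female cells and Ddx3y from the Y chromosome, so by these genes WT replicates 1 and 2 read as female and the other 4 libraries as male. Each difference between the groups therefore also holds a difference in sex, except in the fit with a term for Xist reads, which rests on WT replicate 3 as the only male WT library. The part of the marker differences in the kinase values was not tested.

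Per length of annotated exons, the 10 kinase genes fell into a high, a middle and a low tier that the groups shared. Stk4 had the highest level, 128 ± 3.00 CPM per kb (SD over 6 libraries), above 97.5% of 11301 tested coding genes. Stk10 followed at 95.2 ± 5.42 CPM per kb. The whole range of Stk4 lay above that of Stk10, whose highest library had 102 CPM per kb.

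In the middle tier Map4k1 was at 30.2 ± 1.07 and Map4k4 at 28.3 ± 1.98 CPM per kb (n = 6), and their ranges overlapped. Map4k2 (17.3 ± 1.35), Mink1 (11.5 ± 1.32) and Tnik (8.92 ± 0.518 CPM per kb) came next, each with a range below that of the gene before it. Mink1 was thus the sixth of the 10 genes, at a level above 69.5% of tested coding genes. The order inside the middle tier, and its distance from the high tier, depended on the length used. With the longest transcript as length, Mink1 and Tnik were at 14.5 and 14.0 CPM per kb and Map4k4 (47.0) was above Map4k1 (33.6). With the mean coding transcript, Tnik (34.0) was above Mink1 (17.9) and Map4k2 (40.2) above Map4k1 (34.1), while Map4k4 (87.4) came close to Stk10 (98.2).

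The low tier held Map4k5 at 0.804 ± 0.0395, Stk3 at 0.698 ± 0.0258 and Map4k3 at 0.521 ± 0.0220 CPM per kb (n = 6), each with a range apart from its neighbours. Per length of annotated exons, Tnik, the lowest gene of the middle tier on that scale, was 11.1 times as high as Map4k5. With the mean coding transcript the lowest gene of that tier was Mink1 (17.9), against 1.58 for Map4k5. Stk3 was then also at 1.58, so the order inside the low tier depended on the length used as well. MAP4K3 (also called GLK) is known to activate PKC-theta below the T cell receptor, and its gene had 327 to 510 counts per library here. Within the Hippo pair the ratio of Stk4 to Stk3, scaled to length, was 185, 172 and 171 in the WT libraries, against 185, 186 and 200.1 in the CD103KO libraries. The naive CD8 T cells of both groups therefore carried the Hippo kinase transcript mostly as Stk4.

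**Figure D1:**
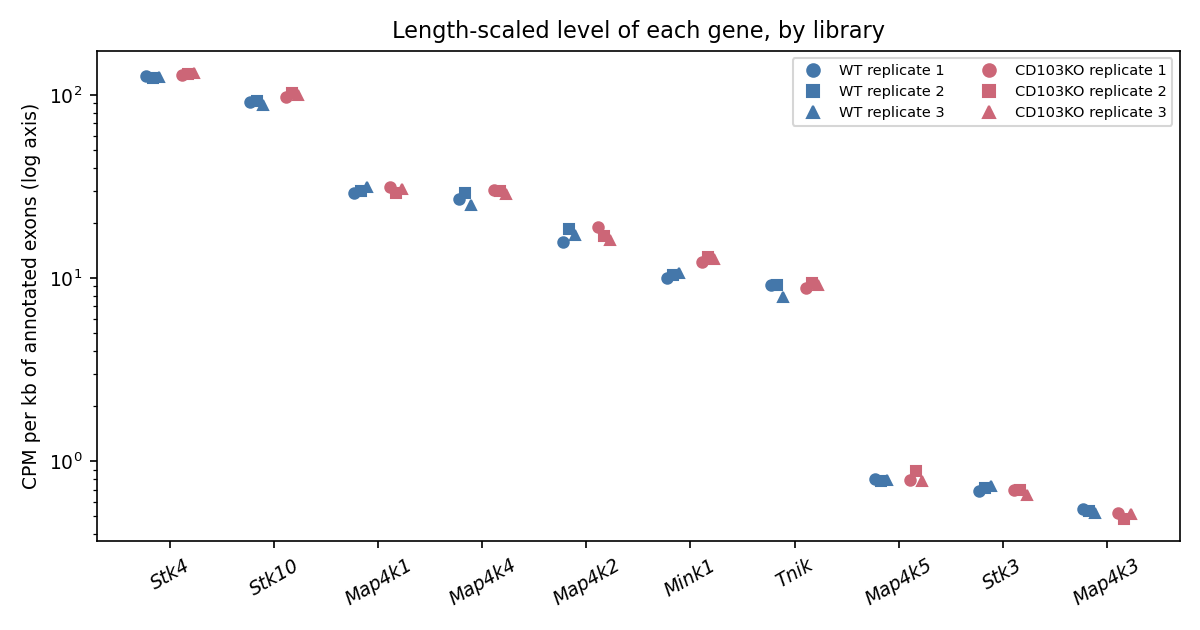
Length-scaled level of each gene (CPM per kb of annotated exons, log axis) in the 6 libraries, with genes ordered by their mean. Points are libraries, blue for WT and red for CD103KO; Stk4 and Stk10 sit between 88.3 and 132, 5 genes between 7.93 and 31.4, and Map4k5, Stk3 and Map4k3 below 1.

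MINK1 (misshapen-like kinase 1) was the member by which the set was chosen, and among the 10 only its gene passed between the groups. Its gene lies on chromosome 11 from 70562881 to 70614483 (GRCm38, plus strand), 2.476 Mb before the start of Itgae. Whether DNA around Itgae, other than the knockout itself, differs between the groups is not in the labels and was not tested. For genes in that region, such a difference cannot be told apart from the loss of CD103 in any fit here. Mink1 was at 63.1, 64.9 and 66.6 CPM in the WT libraries and reached 77.1, 82.1 and 79.7 CPM in the CD103KO libraries. All CD103KO libraries were above all WT libraries, and the gap between the groups (66.6 to 77.1 CPM) was wider than the range inside either. The means were 64.9 ± 1.74 and 79.6 ± 2.51 CPM (SD, n = 3 each), a log2 fold change of 0.30 (SE 0.04, 95% interval 0.20 to 0.39), or 1.23-fold. The counts behind these values were 4727 to 6215 per library.

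WT replicate 3, the WT library without Xist reads, had the highest Mink1 level of its group. With a term for Xist reads, which sets CD103KO against WT replicate 3 alone, the log2 fold change was 0.26 (SE 0.06) and did not pass (adjusted p = 0.496, edgeR; 0.111% of all tested genes passed). Leaving out 1 library at a time kept it between 0.27 and 0.32, and it passed only without CD103KO replicate 1 (adjusted p = 0.0244, edgeR; 0.0534 to 0.246 without another library). An antisense gene, Gm12316, shares 220 exon bases with Mink1 and had 0 counts in all 6 libraries, which allows up to 0.0313 to 0.0440 CPM.

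**Figure D2:**
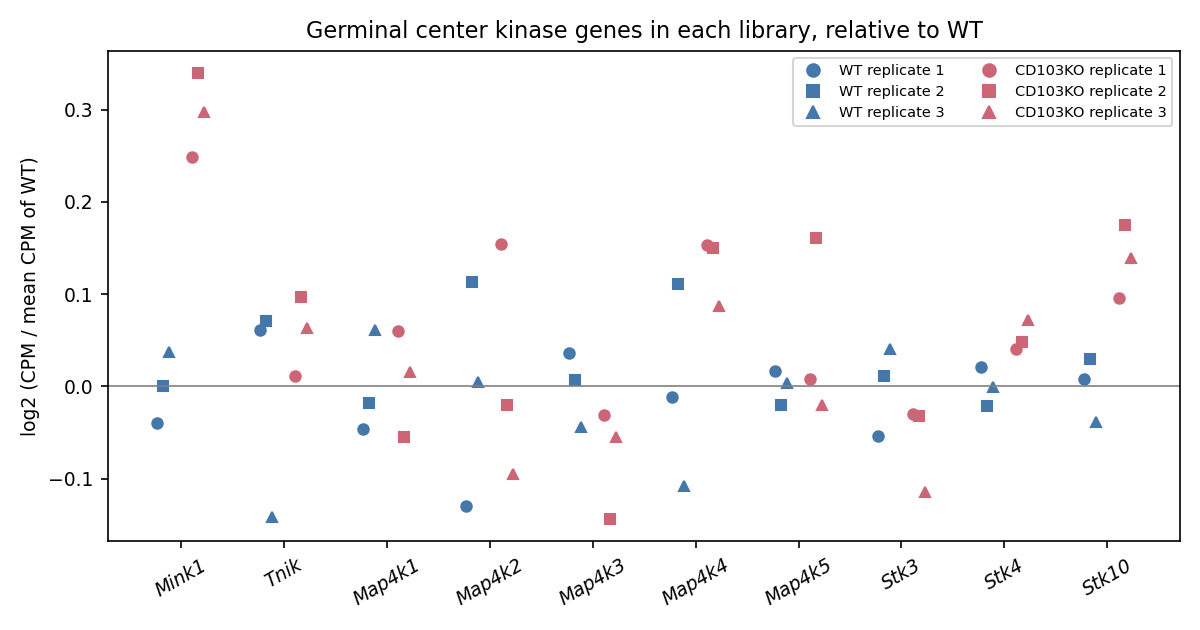
Level of each gene in each library as log2 of its CPM over the WT mean. Mink1 is the gene whose CD103KO points (red) all lie above 0.2, while for 7 of the 10 genes the red and blue points overlap.

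TNIK and MAP4K4, the close relatives that like MINK1 are known to bind Rap2 GTPases, showed no such gap between the groups. Tnik was at 176, 177 and 153 CPM in the WT libraries and at 170, 180.4 and 176 CPM in the CD103KO libraries. The groups overlapped, WT replicate 3 was the low library, and the log2 fold change was 0.06 (95% interval -0.08 to 0.19). With the term for Xist reads, whose reference is that low library, the value was 0.20 (adjusted p = 0.584, edgeR).

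Map4k4, the most counted of these relatives, was at 257, 280 and 241 CPM in WT and at 288, 288 and 275 CPM in CD103KO. WT replicate 2 lay inside the CD103KO range and WT replicate 3 was again the lowest. The log2 fold change was 0.13 (95% interval 0.0037 to 0.26; adjusted p = 0.557, edgeR) and 0.24 with the term for Xist reads (adjusted p = 0.558). Leaving out a library moved it between 0.08 and 0.19. Side by side, the log2 fold changes with the term for Xist reads were 0.26 for Mink1, 0.24 for Map4k4, 0.20 for Tnik and 0.18 for Stk10. The remaining members ran from -0.10 (Stk3) to 0.05 (Stk4), so Mink1 did not stand apart from its relatives in that fit.

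Among the kinases that act next to the T cell receptor and stress signals, Map4k1, the HPK1 gene, was at 89.7, 91.5 and 96.7 CPM in WT and at 96.6, 89.2 and 93.7 CPM in CD103KO. The groups covered the same range, with a log2 fold change of 0.0080 (95% interval -0.10 to 0.11), so a change of the size of Mink1's lies outside the interval. Map4k2 was at 105, 124 and 115 CPM in WT and at 127, 113 and 107 CPM in CD103KO. It varied most within groups (coefficients of variation of 8.39% and 8.98%), and its log2 fold change was 0.02 (95% interval -0.16 to 0.19). Both values changed sign in some alternatives, Map4k1 to -0.05 with the term for Xist reads and Map4k2 to -0.06 without CD103KO replicate 1.

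Map4k3 ranged from 5.15 to 5.44 CPM among WT and from 4.80 to 5.19 CPM among CD103KO libraries, a log2 fold change of -0.08 (95% interval -0.26 to 0.11), and of -0.03 with the term for Xist reads. Map4k5 (also called KHS1), a JNK pathway activator, was at 6.71 to 6.88 and 6.71 to 7.60 CPM, with a log2 fold change of 0.05 (95% interval -0.13 to 0.23). For both, the groups overlapped. Map4k5 overlaps Atl1 on the opposite strand over 548 exon bases, the library kit keeps strand, and the labels do not say whether the counting used it.

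Of the Hippo kinases, Stk4 was at 744, 723 and 733 CPM in WT and at 754, 758 and 771 CPM in CD103KO. Its groups did not overlap, but the gap was small, and the log2 fold change was 0.05 (95% interval -0.02 to 0.13; adjusted p = 0.695, edgeR). Stk3 ranged from 4.19 to 4.48 CPM among WT and from 4.02 to 4.26 CPM among CD103KO libraries, a log2 fold change of -0.06 (95% interval -0.26 to 0.14), and of -0.10 with the term for Xist reads. These groups overlapped.

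Stk10, the LOK gene, was at 473, 480 and 458 CPM in WT and at 503, 531 and 518 CPM in CD103KO. Every CD103KO library was above every WT library. The log2 fold change was 0.14 (SE 0.04, 95% interval 0.05 to 0.22), or 1.10-fold, with an unadjusted p of 0.00627 and an adjusted p of 0.395 (edgeR), which did not pass. Like Mink1 it lies on chromosome 11, from 32533305 to 32624587 on the plus strand. It stayed between 0.11 and 0.18 in every alternative fit tried.

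In all, 1 of the 10 genes passed, Mink1, against 0.223% of 13470 tested genes, and Mink1 was included because it passed. Of the other 9, edgeR called 0 (2 at an unadjusted p under 0.05, Stk10 and Map4k4, both higher, against 8.73% of all tested genes in either direction, 4.53% higher and 4.2% lower). DESeq2, which called 1.02% of all tested genes, and limma-voom called 0 of the 9. The adjusted p of these 9 ran from 0.395 to 0.9753. Groups did not overlap for 2 of these 9 genes, Stk4 and Stk10, against 14.2% of all tested genes. Without Mink1, 2 of the 9 values were below 0 (Map4k3 and Stk3), against 51% of all tested genes. The median log2 fold change of these 9 was 0.05, against -0.0025 over all tested genes.

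**Figure D3:**
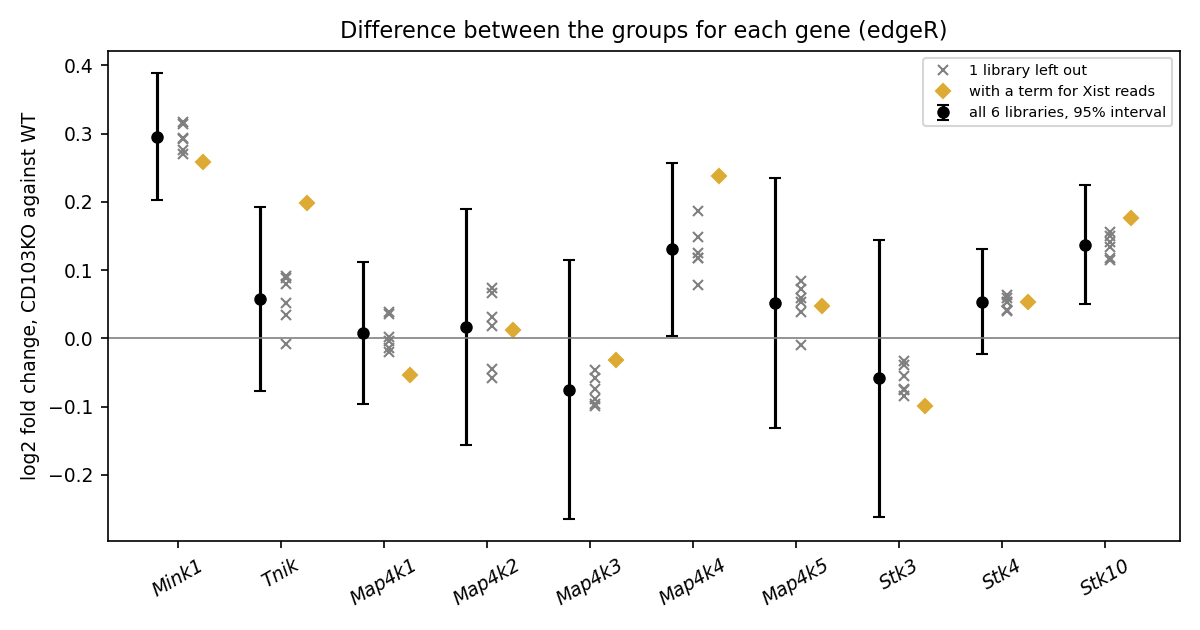
Log2 fold change of each gene, CD103KO against WT. Black points with bars are the edgeR value and 95% interval with 6 libraries, grey crosses the values with 1 library left out, and yellow diamonds the value with a term for Xist reads; the interval of Mink1 runs from 0.20 to 0.39, and those of 7 genes include 0.

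Across the 6 libraries, the genes whose log2 CPM followed that of Mink1 most closely were Eif4g1, a translation initiation scaffold (Pearson r = 0.995), Tcof1, a nucleolar ribosome biogenesis factor (0.995), Plekhg2 (0.993), Alms1, a centrosomal protein (0.992), and Chtop, an mRNA export factor (0.991). None of these 5 passed between the groups (adjusted p = 0.0634 to 0.695, edgeR). These points share the libraries and the contrast by which Mink1 was chosen. Among the 10, Mink1 followed Stk10 (r = 0.917) and Stk4 (0.826) more closely than Map4k4 (0.642) or Tnik (0.319). The closest genes to the others were Asap1 for Tnik (0.989), Dbnl for Map4k1 (0.987), Tmem8b for Map4k2 (0.993), Etv6 for Map4k3 (0.990), Agbl5 for Map4k4 (0.990), Zfp382 for Map4k5 (0.974), Gatad2b for Stk3 (0.996), Wdfy4 for Stk4 (0.996) and Pds5a for Stk10 (0.984). Such values over 6 libraries describe these libraries only.

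Next to Mink1 on chromosome 11, the nearest tested gene before it was Pld2, a phospholipase D gene that ends at 70558110. Pld2 had 1.502 ± 0.273 and 1.06 ± 0.211 CPM in the groups (WT, then CD103KO, n = 3 each) and missed the threshold (log2 fold change -0.50, adjusted p = 0.566, edgeR). The nearest tested gene after it was Slc25a11, a mitochondrial carrier, at 81.0 ± 3.95 and 79.2 ± 6.52 CPM, with a log2 fold change of -0.03 (adjusted p = 0.916). Within 50 kb on either side, 3 of 8 tested genes had positive and 5 negative log2 fold changes. Of these 8, 1 passed, the enolase gene Eno3, which was higher in CD103KO (8.50 ± 0.443 CPM) than in WT (5.83 ± 0.335 CPM; adjusted p = 0.0488, edgeR, and 0.465 with the term for Xist reads). Within 500 kb, 9 of 29 were positive and 20 negative. Of these 29 genes 2 passed, against 0.223% of all tested genes: Eno3, and 6330403K07Rik, which was lower in CD103KO (0.178 ± 0.0524 CPM) than in WT (0.963 ± 0.283 CPM; log2 fold change -2.42, adjusted p = 0.0365, edgeR, and 0.0838 with the term for Xist reads). At an unadjusted p under 0.05, 2 were higher and 5 lower, against 8.73% of all tested genes in either direction. With the term for Xist reads Pld2 was at -0.26 and Slc25a11 at 0.0093.

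The genes around these kinases were read in 7 pathway lists holding 155 entries that were tested, and edgeR called 0 of them. The counts at an unadjusted p under 0.05 that follow stand against 8.73% of all tested genes, 4.53% higher and 4.2% lower, and those of DESeq2 against 1.02%. Among other Ste20-like kinases, 10 of 16 tested genes were positive, with a median log2 fold change of 0.01, and 1 had an unadjusted p under 0.05 (DESeq2 called 0). That gene was Taok2, a kinase upstream of p38, at 68.03 ± 3.91 and 73.8 ± 1.99 CPM (log2 fold change 0.12, adjusted p = 0.541, edgeR). Slk, the closest relative of Stk10, was at 81.6 ± 7.66 and 89.3 ± 1.03 CPM (0.13, adjusted p = 0.604), and Taok1 at 54.8 ± 3.78 and 59.8 ± 1.70 CPM (0.12, adjusted p = 0.585). With the term for Xist reads Taok2 was at 0.03 and Slk and Taok1 both at 0.24, and none passed.

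Of the Hippo pathway and STK3/STK4 partners, 9 of 18 tested genes were positive and 9 negative, with a median of 0.00073. None had an unadjusted p under 0.05, and DESeq2 called 0. Sav1, the scaffold that activates STK3 and STK4, was at 28.9 ± 1.73 and 25.6 ± 2.37 CPM (log2 fold change -0.18, adjusted p = 0.581, edgeR). Foxo1, a transcription factor of naive T cells, was at 404 ± 23.3 and 375 ± 29.1 CPM (-0.11), and Lats2, a kinase below STK3 and STK4, at 47.3 ± 4.28 and 43.5 ± 2.47 CPM (-0.12, and -0.07 with the term for Xist reads); neither passed.

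The STRIPAK complex joins the phosphatase PP2A to germinal center kinases. Of its 16 tested genes, 8 were positive and 8 negative, with a median of -0.0032, 0 at an unadjusted p under 0.05 and 0 called by DESeq2. The PP2A scaffold genes Ppp2r1b and Ppp2r1a had log2 fold changes of 0.08 and -0.04, with adjusted p of 0.695 and 0.785 (edgeR). Ppp2r1b was at 0.14 with the term for Xist reads. No gene of this complex above 1 CPM had a log2 fold change outside -0.06 to 0.08.

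The JNK and p38 cascade lies below the MAP4K proteins. Of its 29 tested genes 15 were positive, with a median of 0.03, and 2 had an unadjusted p under 0.05, both lower. Dusp10, a phosphatase that switches off JNK and p38, was at 44.9, 44.7 and 47.1 CPM in WT and at 40.6, 35.6 and 36.7 CPM in CD103KO. Its groups did not overlap, and the log2 fold change was -0.28 (SE 0.06). It passed with DESeq2 (adjusted p = 0.00975) and not with edgeR (adjusted p = 0.205). Junb, an AP-1 subunit, was at 96.4 ± 3.08 and 84.3 ± 9.66 CPM (-0.19, adjusted p = 0.501, edgeR; 0.0352 without CD103KO replicate 1). Dusp16, another JNK phosphatase, was at 4.71 ± 0.468 and 4.04 ± 0.435 CPM (-0.22, adjusted p = 0.648, and -0.05 with the term for Xist reads). The JNK genes Mapk8 and Mapk9 had log2 fold changes of -0.05 and -0.06, and the JNK kinase genes Map2k4 and Map2k7 of 0.03 and 0.05.

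Of the T cell receptor adaptors and MAP4K1 partners, 17 of 27 tested genes were positive, with a median of 0.02, and 2 had an unadjusted p under 0.05, both higher. Grap, an adaptor of the GRB2 family, was at 135, 133 and 149 CPM in WT and at 174.5, 168 and 171 CPM in CD103KO. The groups did not overlap, and WT replicate 3 was again the WT library nearest to CD103KO. Its log2 fold change was 0.30 (SE 0.05), as large as that of Mink1. It missed the edgeR threshold (adjusted p = 0.0776) and passed with DESeq2 (6.267e-05), without a filter on low counts (0.00310), with limma-voom and quality weights (0.0196) and without WT replicate 3 (0.0158). With the term for Xist reads it was 0.20 (adjusted p = 0.558) and did not pass. Grap too lies on chromosome 11, from 61653265 to 61672784. Other listed genes on this chromosome went either way, among them Rap1gap2 (-0.66), Mapk9 (-0.06), Map2k4 (0.03) and Taok1 (0.12). Cbl, a ubiquitin ligase that restrains T cell receptor signalling, was at 260 ± 7.63 and 293 ± 2.68 CPM (0.17, adjusted p = 0.203, edgeR; 0.0162 with DESeq2). Cul7, part of the ubiquitin ligase that removes HPK1, was at 10.8 ± 1.08 and 12.2 ± 0.687 CPM (0.18, adjusted p = 0.614, and 0.03 with the term for Xist reads). The main adaptors that recruit HPK1 were close to level, Lcp2 at 279 ± 6.63 and 275 ± 10.3 CPM and Grap2 at 817 ± 50.6 and 785 ± 32.4 CPM (-0.06, and 0.04 with the term for Xist reads).

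The list of Rap GTPases, integrin activation and ERM proteins includes the Rap2 partners of MINK1 and the ERM substrates of STK10. Of its 26 tested genes 17 were positive, with a median of 0.03 and 1 at an unadjusted p under 0.05 (DESeq2 called 0). That gene was Rap1gap2, which switches off Rap1, at 12.5, 8.60 and 6.40 CPM in WT and at 5.56, 6.59 and 5.33 CPM in CD103KO. WT replicate 3 lay inside the CD103KO range, and the log2 fold change of -0.66 (adjusted p = 0.440, edgeR) was -0.14 with the term for Xist reads. Rap2a, one of the MINK1-binding GTPases, was at 9.02 ± 0.779 and 10.3 ± 0.980 CPM (0.19, adjusted p = 0.621, and 0.32 with the term for Xist reads), and Skap1, an integrin-activating adaptor, at 334 ± 7.63 and 355 ± 14.5 CPM (0.09, adjusted p = 0.586). The ERM genes Ezr, Msn and Rdx had log2 fold changes of 0.07, 0.0047 and 0.01, and of 0.03, -0.04 and -0.0084 with the term for Xist reads.

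Of the TCF/LEF and beta-catenin genes, which TNIK is known to serve, 11 of 23 tested were positive, with a median of -0.0027, 1 at an unadjusted p under 0.05 and 0 called by DESeq2. Aes, a corepressor, was at 552 ± 12.6 and 521 ± 7.44 CPM (-0.08, adjusted p = 0.561, edgeR). Axin1, a scaffold of beta-catenin destruction, was at 125 ± 2.55 and 132 ± 2.63 CPM (0.08, adjusted p = 0.621), and Lef1, a naive T cell transcription factor, at 492 ± 47.1 and 461 ± 25.8 CPM (-0.10, adjusted p = 0.734). Lef1 overlapped between the groups, and its direction turned with the term for Xist reads (0.06).

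**Figure D4:**
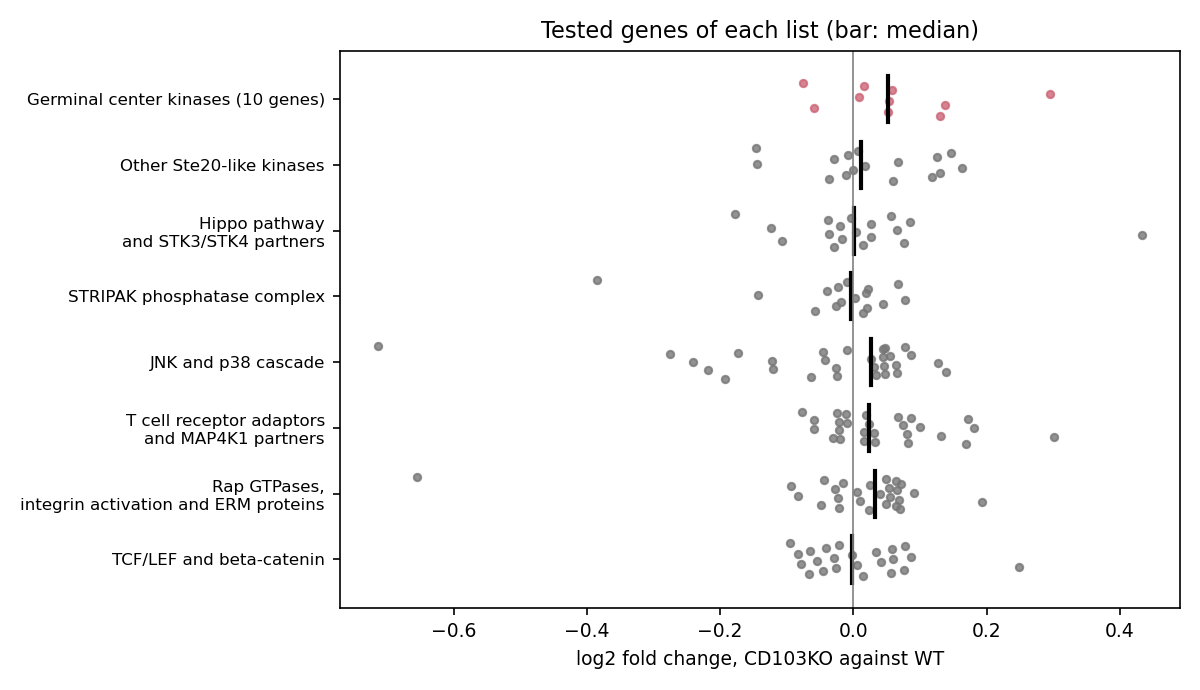
Log2 fold change (CD103KO against WT) of every tested gene in each list, 1 point per gene, with a black bar at the median. Medians of the 7 pathway lists lie between -0.0032 and 0.03. Mink1 is the red point at 0.30, and Grap the grey one at the same value in the T cell receptor adaptor list. The outermost points are Mapk8ip1 (-0.71, under 1 CPM) and Rap1gap2 (-0.66) on the left and Rassf4 (0.43, under 1 CPM) on the right.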

How the data were processed

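RNA-seq libraries of 3 WT and 3 CD103KO samples were compared. The submitters' processing notes name STAR 2.7.0f, RSEM, cutadapt 1.18 and bcl2fastq 2.20, and the builds GRCm38 and mm10. Neither label nor header gives the RSEM version, the annotation release or the strand setting. The authors deposited unnormalized expected counts per gene, which were rounded to whole numbers (6.48% of entries had decimals). All 55450 identifiers matched GENCODE M21 (GRCm38), the source of coordinates, exon lengths and coding sequences, which were aligned with Biopython 1.88.

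The fit over 13470 genes used edgeR 4.0.16 in R 4.3.3: filterByExpr (minimum count 10), TMM, the quasi-likelihood F test on group, and Benjamini-Hochberg adjustment at 0.05. CPM use TMM-scaled library sizes. SE is the size of the log2 fold change over the square root of F, and intervals use the test's degrees of freedom. Tested on simulated data, 46% of genes changed 1.25-fold and 74% changed 1.5-fold were recovered. No library repeats another: the chi-square over degrees of freedom between libraries of a group was 12.6 to 26.3.

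Alternatives were RLE and upper-quartile factors, other filters, DESeq2 1.42.0, limma-voom 3.58.1 without and with quality weights, counts left unrounded, a threshold of 0.01 on the adjusted p, a replicate block, a term for libraries above 1 CPM of Xist, each library left out, and other gene lengths. Members, lists and the Xist term were chosen with earlier results of these data known. The named genes are Itgae, the 10 kinases, the 3 genes of smallest p above 1 CPM in each list (1 is not reported here) and any called, the tested neighbours of Mink1, and the genes most correlated with each kinase (5 for Mink1, 1 for the others). Chosen after their values were seen were Eno3, 6330403K07Rik, Mapk8, Mapk9, Mapk8ip1, Map2k4, Map2k7, Lcp2, Grap2, Ezr, Msn, Rdx, Ccr7 and Rassf4. Counting floors (3 counts) cover counting error only.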

Additional observations from a re-analysis of the deposited data

How the results depend on the processing

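Mink1 was higher in CD103KO in all 17 alternatives (log2 fold change 0.26 to 0.32) and passed in 9 of them. It did not pass at an adjusted p of 0.01 (0.30), with the replicate block (0.30, adjusted p = 0.112, edgeR) or with the Xist term (0.26), where 0 of the 10 genes were called. With 1 library left out its value was 0.27 to 0.32 and 0 to 1 of the 10 genes were called. The other 9 were called in no alternative. Map4k3 and Stk3 were lower, and Map4k4, Stk4 and Stk10 higher, in all 17. Map4k1 was at -0.0082 with limma-voom and quality weights and at -0.054 with the Xist term, and ran from -0.019 to 0.039 with 1 library left out. Map4k2 was at -0.00037 with quality weights and ran from -0.058 to 0.074, Tnik from -0.0086 to 0.092 and Map4k5 from -0.0091 to 0.084. Same-numbered libraries did not deviate together (r = -0.34, -0.03 and 0.05), so the numbers were not taken to pair them.

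Over all genes 30 were called, 112 with no filter, 137 with DESeq2, 50 with quality weights, 19 at an adjusted p of 0.01, 15 with the Xist term, 24 with the replicate block and 19 to 59 with 1 library left out (52 without WT replicate 3, 59 without CD103KO replicate 1, 19 without CD103KO replicate 2). Of the T cell receptor adaptor list 1 gene was called with no filter, 2 with DESeq2, 1 with quality weights and 0 to 1 with 1 library left out. Of the JNK and p38 list it was 1 with DESeq2 and 0 to 1 with 1 library left out.

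With the longest transcript as length, levels in CPM per kb were 14.5 for Mink1, 14.0 for Tnik, 33.6 for Map4k1, 22.6 for Map4k2, 1.22 for Map4k3, 47.0 for Map4k4, 1.54 for Map4k5, 1.29 for Stk3 and 143 for Stk4. With the mean coding transcript they were 17.9 for Mink1, 34.0 for Tnik, 34.1 for Map4k1, 40.2 for Map4k2, 1.24 for Map4k3, 87.4 for Map4k4, 1.58 for Map4k5, 1.58 for Stk3 and 286 for Stk4. Depth limits Map4k3, Map4k5 and Stk3 most, at 290 to 642 counts per library.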

Other observations

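Within the trio of Mink1, Tnik and Map4k4, the ratio of Mink1 to Tnik (both in CPM) was 0.359, 0.367 and 0.436 in the WT libraries, in the order of replicates 1, 2 and 3, against 0.454, 0.455 and 0.453 in the CD103KO libraries. It was nearly constant in CD103KO, and WT replicate 3, the WT library without Xist reads, lay nearer to CD103KO than to the other WT libraries. In that library Tnik was low (153 CPM), while Mink1 (66.6 CPM) remained on the WT side. The ratio of Mink1 to Map4k4 overlapped between the groups, at 0.245, 0.232 and 0.277 in WT and 0.267, 0.285 and 0.289 in CD103KO. Summed, the trio came to 493 ± 31.1 CPM for WT and 539 ± 9.94 CPM for CD103KO (SD, n = 3 each), and the 9 genes without Mink1 to 1855 ± 39.9 and 1963 ± 11.6 CPM, most of it from Stk4 and Stk10.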
